A study of Homo sapiens with 6 samples.

Results

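The genes of the AP-1 transcription factor were examined with and without ultraviolet B (UVB) light in HaCat cells, which are immortalised human keratinocytes. The 10 members were taken by gene symbol from the 58735 genes of the deposited table: JUN, JUNB, JUND, FOS, FOSB, FOSL1, FOSL2, ATF3, BATF3 and MAFF. RNA came from 3 control libraries and 3 libraries of cells given UVB at a dose labelled 50 mJ, with no area stated. Cells were grown in 60 mm dishes, and the irradiated cells were kept for 24 h before harvest, so the data hold a single time point. Both groups are the same cell line. Whether replicate dishes came from separate cultures is not stated in the labels, and p-values therefore reflect the spread among these 6 libraries alone, part or all of which may be technical. The labels also do not say whether control dishes were handled like the irradiated ones apart from the light.

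AP-1 is a dimer of basic leucine zipper (bZIP) proteins. Jun proteins pair with each other or with Fos proteins, whereas Fos proteins need a Jun partner, and the ATF, BATF and small Maf proteins add further partners. In cells exposed to ultraviolet light, the stress kinases JNK and p38 phosphorylate Jun and ATF proteins, and AP-1 genes such as FOS are classic early response genes whose RNA appears and disappears quickly. In keratinocytes AP-1 is known for acting on genes of differentiation, inflammation and matrix breakdown. RNA levels, the measure here, do not show phosphorylation, protein or DNA binding, and in bulk RNA fewer cells of a type and less RNA per cell cannot be told apart.

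AP-1 and related dimers bind the sequence TGANTCA or the longer TGACGTCA and TGACATCA, so the upstream sequences of the members were searched for these letters on both strands. RefSeq promoters (GRCh38.p14) were at hand for 8 members in 10 windows, and the 250 bases before each annotated start were used. No promoter was at hand for FOSL1 and BATF3. An 8-letter match was held by 4 members, JUN, ATF3, JUND and MAFF, and is shown here because JUN and JUND are among the genes that rose. ATF3 and MAFF are not among them, JUNB rose without a match, and FOSL1 rose but could not be searched. Whether a match bears on the response was not tested. Each line gives 30 bases, 5′ to 3′ on the strand of the gene, with the match in capitals.

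JUN, chr1:58784096-58784125, minus strand: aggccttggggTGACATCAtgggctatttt

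ATF3, chr1:212565273-212565302, plus strand: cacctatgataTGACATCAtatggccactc

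JUND, chr19:18281804-18281833, minus strand: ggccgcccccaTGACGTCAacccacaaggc

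MAFF, chr22:38201929-38201958, plus strand: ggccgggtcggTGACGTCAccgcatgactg

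The match began 67 bases before the start in JUN, 123 in ATF3, 200 in JUND and 54 in MAFF. As background, JUN is known to act on its own promoter through an element of this kind. Of 35116 promoter windows of the same length, 2.37% held TGACATCA and 1.65% held TGACGTCA. The shorter TGANTCA, a match of which cannot lie inside either longer motif, was in none of the members' windows and in 6.57% of all windows. The CArG box, bound by serum response factor, was also in none, against 1.16% of all windows. At so low a share, finding none in 10 windows says little. Bases further upstream than 250 were not searched, so a CArG box or other motif of these genes may lie there. TATAAA on the strand of the gene lay 33, 31 and 30 bases before the starts of FOS, JUNB and FOSB and 230 bases before the start of the second ATF3 window, and 6.8% of all windows held it. The windows shown for JUN and MAFF lie within exons of these genes in GENCODE release 29, whose 5′ ends reach further upstream. The window of JUND touches no GENCODE exon, and its 250 bases (chr19:18281623-18281872, minus strand), again with the match in capitals, show how rich in G and C the surrounding sequence is:

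JUND: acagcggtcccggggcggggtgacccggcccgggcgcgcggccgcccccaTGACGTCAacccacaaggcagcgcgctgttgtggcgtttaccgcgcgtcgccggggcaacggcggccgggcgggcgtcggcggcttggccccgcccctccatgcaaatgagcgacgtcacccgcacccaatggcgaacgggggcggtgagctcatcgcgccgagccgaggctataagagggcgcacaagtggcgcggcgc

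The libraries held 66272443 to 88484020 assigned reads. Levels are given as FPKM, fragments scaled to the length of the gene and to the assigned reads of the library. Genes whose mean over the 6 libraries reached 0.5 FPKM were compared on log2(FPKM + 1), and a gene was called when the limma p, adjusted over all 14921 such genes, was under 0.05. Each library had 33 to 52 of the 14921 tested genes at least 1 log2 unit below both other replicates of its group, and 27 to 54 genes that far above. No library stood apart from the others in this count.

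Of the 9 members tested, 4 rose after UVB (JUN, JUND, FOSL1 and JUNB), 5 did not pass and none was called lower. Of all tested genes, 17% were called higher and 11% lower. The median log2 fold change was 0.47 over the 9 members and 0.04 over all tested genes. The UVB libraries lay above the control libraries without overlap for 7 members, the exceptions being FOS and MAFF, and this was so for 27.6% of all tested genes. All 9 had a control mean over the filter, so none was tested only because of its level after UVB. By edgeR on the recovered reads 3 members were higher (JUN, JUND and FOSL1), against 13.3% of all genes. By DESeq2 6 were higher (JUN, JUND, FOSL1, FOSL2, FOSB and ATF3), against 16.5%. The calls over all genes were 2530 higher and 1637 lower by limma, against 1979 and 1979 by edgeR and 2404 and 2365 by DESeq2. The authors' deposited table gave adjusted p-values of 2.06e-67 for JUN, 8.07e-05 for JUND and 2.88e-07 for FOSL1, and 0.941 for JUNB. That table also holds 771683 repeat copies, and no source used here says over which rows the authors adjusted. Their adjusted values are therefore not on the same footing as those above. Before adjustment the authors' p for JUNB was 0.0667. At an unadjusted limma p under 0.05, 7 members were higher and none was lower, against 24.6% and 15.8% of all tested genes, and edgeR and DESeq2 also called none lower.

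**Figure D1:**
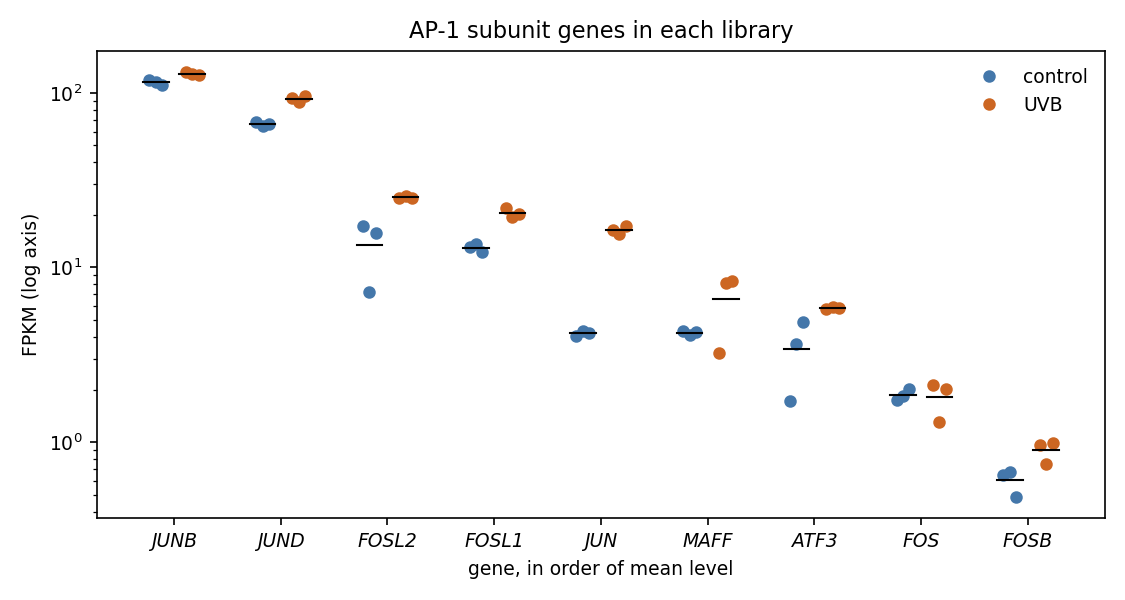
Level of each AP-1 subunit gene in each library in FPKM on a log axis, ordered by mean level, with 3 control points in blue, 3 UVB points in orange and a bar at each group mean. JUN rises from 4.21 to 16.4 FPKM, while FOSL2 in a single control library and MAFF in a single UVB library lie far below their group.

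JUN, which encodes the founding subunit and the main JNK substrate, rose 3.9-fold. It is a gene without introns (ENSG00000177606, chromosome 1, 58780788 to 58784327, GRCh38, minus strand). JUN measured 4.07, 4.32 and 4.23 FPKM in the control libraries and 16.5, 15.5 and 17.3 FPKM after UVB. The groups were far apart, with tight replicates in both. By limma the log2 fold change was 1.74, with an SE of 0.058 and an adjusted p of 5.24e-05, and it ranked 12 from the top among all 14921 tested genes. In the authors' deposited table the log2 fold change of JUN was 1.96.

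JUND encodes a Jun protein that is present in most resting cells. It lies on chromosome 19 (ENSG00000130522, 18279760 to 18281622, minus strand) and is also free of introns. JUND measured 68.5, 65.0 and 66.1 FPKM in controls and 93.6, 88.01 and 96.4 FPKM after UVB, again without overlap. By limma its log2 fold change was 0.47, with an SE of 0.0475 and an adjusted p of 0.00111. The ratio of its group means was 1.39, from a control level of 66.5 FPKM against 4.21 FPKM for JUN. JUN amounted to 0.0594, 0.0665 and 0.064 of the FPKM of JUND in the 3 control libraries and to 0.176, 0.176 and 0.179 after UVB.

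JUNB encodes a Jun protein often set against JUN, since it activates fewer promoters on its own. It was the highest member in every library and changed least among the called genes. JUNB (ENSG00000171223, chromosome 19, 12791496 to 12793315, plus strand) measured 118, 115 and 111 FPKM in controls and 132, 128 and 126 FPKM after UVB. The groups did not overlap, but the lowest UVB library was near the highest control library. By limma the log2 fold change was 0.16, with an SE of 0.0403 and an adjusted p of 0.0268. This call was lost by edgeR (adjusted p = 0.119), by DESeq2 (adjusted p = 0.164) and in 5 of the 6 fits that left out a library, with adjusted p from 0.0409 to 0.088 over those fits. Of the exon bases of JUNB, 14.2% are shared with HOOK2 on the other strand, and since no strand setting is given, reads of the shared part cannot be told apart. HOOK2 itself did not pass, with 9.95 FPKM in controls and 8.79 after UVB.

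**Figure D2:**
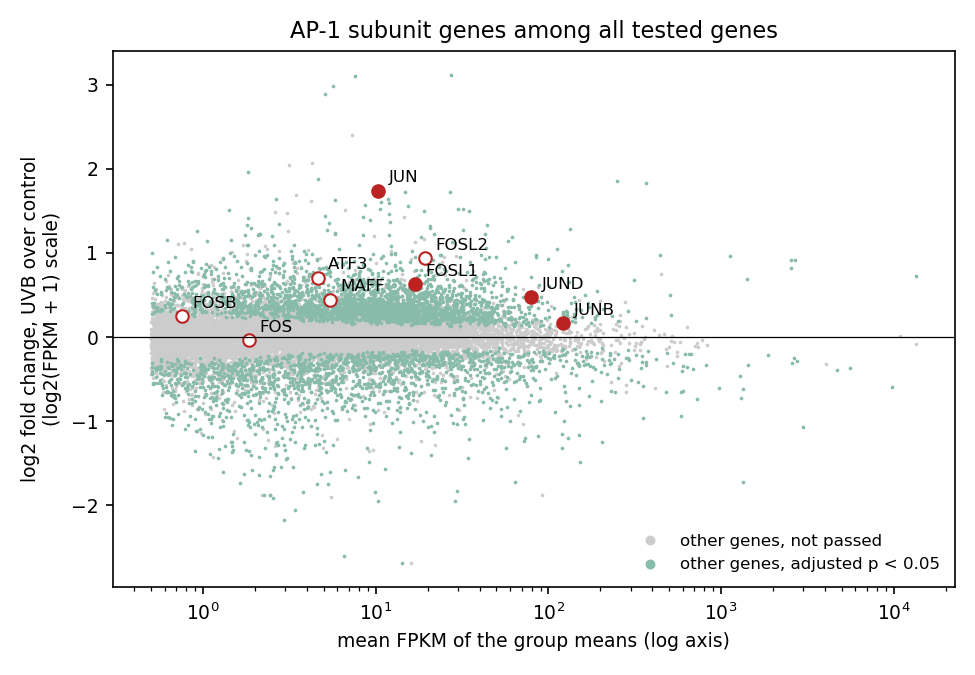
Log2 fold change of UVB over control against mean FPKM (log axis) for all 14921 tested genes, green where the adjusted p was under 0.05, with the 9 tested members as red circles, filled where called. JUN stands near the upper edge of the cloud, and FOS lies on the line of no change.

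FOSL1 encodes FRA-1, a Fos protein without the strong activation domain of FOS that is common in epithelial cells. FOSL1 (ENSG00000175592, chromosome 11, 65892049 to 65900573, minus strand) measured 13.0, 13.6 and 12.3 FPKM in controls and 21.9, 19.6 and 20.2 FPKM after UVB. All 3 UVB libraries lay well above all controls. By limma its log2 fold change was 0.63, with an SE of 0.0626 and an adjusted p of 0.00108, and the ratio of the group means was 1.59. FOSL1 was the member of the Fos family that limma called with all libraries, and DESeq2 also called FOSL2 and FOSB.

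FOSL2 encodes FRA-2, the other Fos protein of this kind. FOSL2 (ENSG00000075426, chromosome 2, 28392448 to 28417312, plus strand) measured 17.4, 7.25 and 15.8 FPKM in controls and 24.95, 25.6 and 25.1 FPKM after UVB. The UVB libraries were nearly equal, whereas control replicate 2 lay 1.03 log2 units below the next control. By limma the log2 fold change of 0.94 had an SE of 0.293 and did not pass (adjusted p = 0.0574). Without control replicate 2 the value was smaller, 0.57, and passed (adjusted p = 0.00368). It also passed without control replicate 1, at 1.15 (adjusted p = 0.0458), and the other fits with a library left out gave adjusted p up to 0.128. DESeq2 called FOSL2 (log2 fold change 0.85, adjusted p = 0.00473) and edgeR did not (adjusted p = 0.0803).

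FOS, which encodes the founding Fos protein (ENSG00000170345, chromosome 14, 75278774 to 75282230, plus strand), measured 1.74, 1.84 and 2.02 FPKM in controls and 2.11, 1.31 and 2.02 FPKM after UVB. The groups overlapped, with UVB replicate 2 the lowest of the 6. The log2 fold change was -0.04, with a 95% interval from -0.35 to 0.27 (limma adjusted p = 0.857). These levels rest on 375 to 532 reads per library. FOSB, a close relative of FOS with the same early response, was the lowest member listed above 0 (ENSG00000125740, chromosome 19, 45467995 to 45475179, plus strand). FOSB measured 0.649, 0.677 and 0.487 FPKM in controls and 0.964, 0.747 and 0.994 FPKM after UVB, from 220 to 438 reads. The groups did not overlap, but the log2 fold change of 0.24 ± 0.0955 did not pass (SE, limma adjusted p = 0.106). Without a pseudocount the ratio of its group means was 1.49, since a pseudocount of 1 compresses changes at this level. DESeq2 called FOSB (log2 fold change 0.53, adjusted p = 0.0415) and edgeR did not (adjusted p = 0.0825).

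ATF3 encodes a stress-induced partner of Jun proteins that often represses its targets (ENSG00000162772, chromosome 1, 212565334 to 212620777, plus strand). ATF3 measured 1.72, 3.66 and 4.84 FPKM in controls and 5.79, 5.90 and 5.83 FPKM after UVB. The controls were spread out, with replicate 1 lying 0.77 log2 units below the next, while the lowest and the highest UVB library each lay 0.01 log2 units from the middle one. The groups did not overlap, and the log2 fold change of 0.70 ± 0.264 did not pass (SE, limma adjusted p = 0.0956). It was 0.39 without control replicate 1 and 0.94 without control replicate 3, and passed in the latter (adjusted p = 0.0403). DESeq2 called ATF3 (log2 fold change 0.72, adjusted p = 0.045) and edgeR did not (adjusted p = 0.161).

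MAFF encodes a small Maf protein, which binds DNA without an activation domain of its own (ENSG00000185022, chromosome 22, 38200767 to 38216511, plus strand). MAFF measured 4.32, 4.09 and 4.26 FPKM in controls and 3.22, 8.17 and 8.31 FPKM after UVB. UVB replicate 1 was below every control and lay 1.12 log2 units below the next UVB library, whereas the other UVB libraries were well above all controls. The log2 fold change was 0.45, with a 95% interval from -0.29 to 1.18 (limma adjusted p = 0.324). Without UVB replicate 1 it was 0.82 and passed (adjusted p = 0.00213).

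BATF3, a Jun partner known from dendritic cells (ENSG00000123685, chromosome 1, 212686418 to 212699985, minus strand), was listed at 0 FPKM in all 6 libraries, so it was not tested and no fold is given. In the table, 3521 of 19951 protein-coding genes were likewise listed at 0 throughout. BATF3 and ATF3 are neighbours on chromosome 1, 65.6 kb apart.

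**Figure D3:**
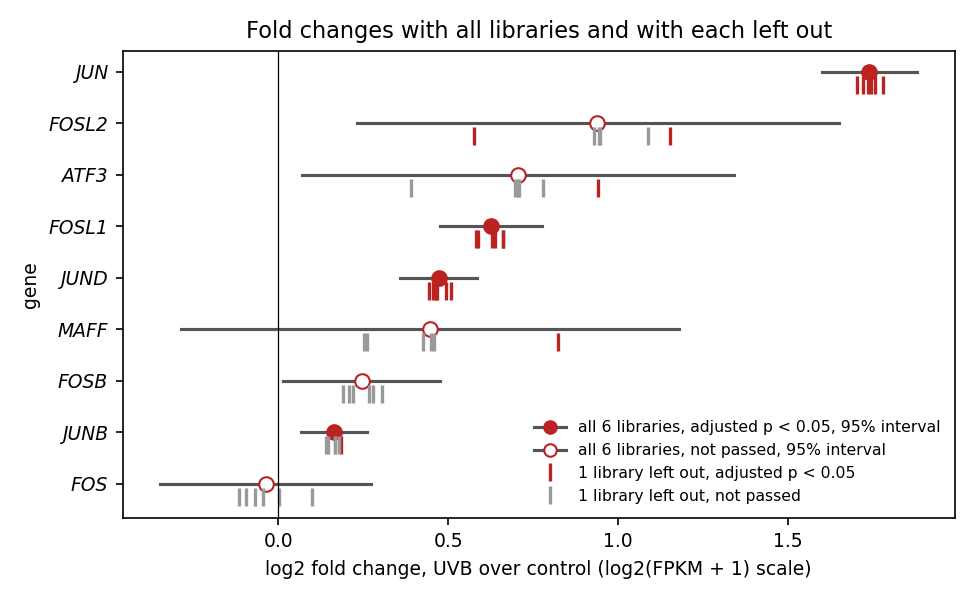
Log2 fold change of the 9 tested members (circles, filled where the adjusted p was under 0.05) with 95% intervals from limma, and below each the values with 1 library left out (ticks, red where called). JUN, FOSL1 and JUND were called in all 6 such fits, and FOSL2, ATF3 and MAFF moved most when a library was left out.

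The spread between replicates thus differed among members. The standard deviation within groups on the log2 scale was 0.0596 for JUN, 0.054 for JUND and 0.0761 for FOSL1, against 0.449 for FOSL2, 0.4 for ATF3 and 0.463 for MAFF. The last 3 lay at the 96.2, 94.9 and 96.5 percentiles of all tested genes. The deviating library was a different one each time: control replicate 2 was lowest for FOSL2, control replicate 1 for ATF3 and UVB replicate 1 for MAFF. What sets these single libraries apart for these genes was not tested.

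The order of levels in controls was JUNB, JUND, FOSL2, FOSL1, MAFF, JUN, ATF3, FOS and FOSB. FOSL2 and FOSL1 did not differ beyond their spread there (13.5 ± 5.46 and 13.0 ± 0.692 FPKM, SD, n = 3), nor did MAFF and JUN (4.23 ± 0.121 and 4.21 ± 0.129 FPKM) or JUN and ATF3 (3.41 ± 1.57 FPKM). After UVB the mean of JUN, 16.4 ± 0.918 FPKM, came next after that of FOSL1, and its libraries did not overlap those of FOSL1 above it or MAFF below it. MAFF and ATF3 overlapped after UVB (6.57 ± 2.90 and 5.84 ± 0.0558 FPKM).

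Because FPKM are per length, the make-up of each family can be described by summing its members. The length used is that of all annotated exons of a gene merged, for FOS 3238 bases from 10 transcripts. JUN, JUNB and JUND have 1 merged exon each. Genes with many transcripts may therefore read low beside these, which limits the order above and the shares and ratios below. The Jun family summed to 191, 184 and 181 FPKM in controls and 242, 231 and 240 FPKM after UVB. JUN made up 2.27% ± 0.119 of that sum in controls and 6.91% ± 0.276 after UVB (SD, n = 3). The share of JUNB was 61.8% ± 0.624 in controls and 54.1% ± 1.37 after UVB, and that of JUND 35.9% ± 0.626 and 39.0% ± 1.10. JUNB thus held the largest share of Jun family RNA in both groups, and JUN the smallest.

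The Fos family summed to 32.8, 23.4 and 30.6 FPKM in controls and 49.9, 47.2 and 48.3 FPKM after UVB. FOSL1 and FOSL2 together supplied nearly all of it. After UVB FOSL2 made up 52.0% ± 2.12, FOSL1 42.4% ± 1.29, FOS 3.73% ± 0.828 and FOSB 1.86% ± 0.246 (SD, n = 3). In controls the FOSL2 share was 53.0%, 31.0% and 51.7%, the middle value being that of replicate 2. The level of FOSL1 was 7.48, 7.43 and 6.06 times that of FOS in controls and 10.4, 14.9 and 10 times after UVB. In every library the Jun family sum exceeded that of the Fos family.

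**Figure D4:**
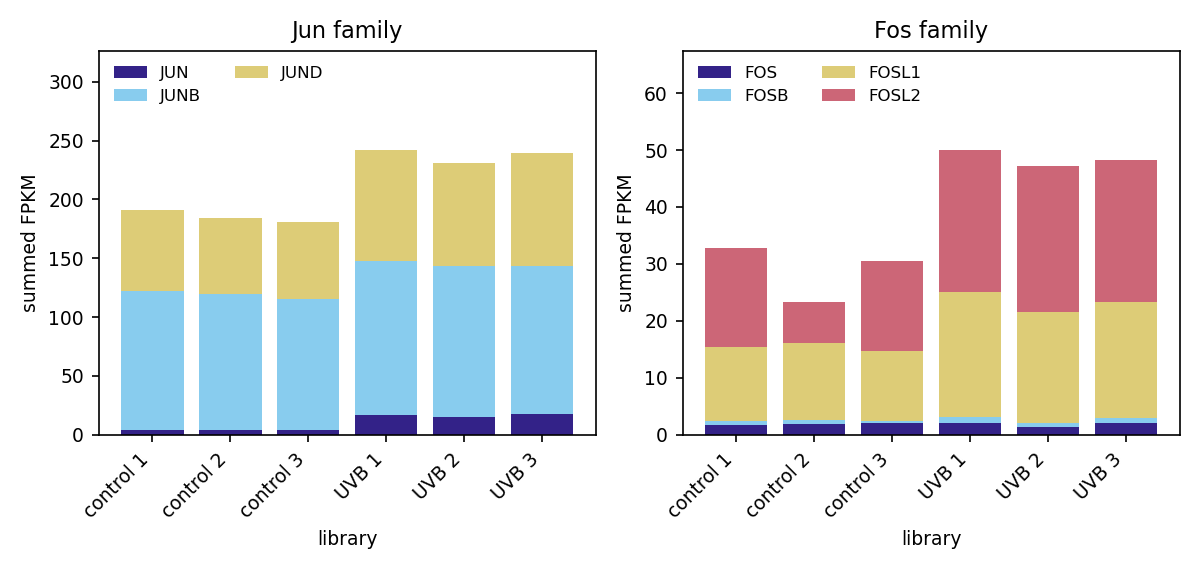
Summed FPKM of the Jun family (JUN, JUNB, JUND) and the Fos family (FOS, FOSB, FOSL1, FOSL2) in each library, stacked by gene. The Jun sum is 181 to 191 FPKM in controls and 231 to 242 FPKM after UVB, and the low Fos sum in control replicate 2 is that of FOSL2.

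Other bZIP genes whose products pair with AP-1 proteins were compared in the same fit. Of 14 listed, 10 were tested, 4 rose and 6 did not pass, with a median log2 fold change of 0.32. Among all tested genes 17% were called higher and 11% lower. None of the 10 was called lower by limma, with 1 called lower by edgeR and 2 by DESeq2. At an unadjusted limma p under 0.05, 6 were higher and 2 lower, against 24.6% and 15.8% of all tested genes. DDIT3, which encodes the stress factor CHOP, rose from 9.33 ± 0.845 to 28.6 ± 6.15 FPKM (limma log2 fold change 1.504, adjusted p = 0.00105), but 39.6% of its exon bases are shared with other genes. BATF2, a partner known from interferon responses, rose from 0.695 ± 0.0665 to 2.33 ± 0.417 FPKM (log2 fold change 0.97). JDP2, a repressor that lies 145.5 kb from FOS on chromosome 14, rose from 2.77 ± 0.135 to 4.30 ± 0.195 FPKM (0.49). ATF7, a relative of ATF2, rose by 0.28, with 43.8% of its exon bases shared, and its call was lost with the replicate block (adjusted p = 0.051). The call of the other 3 held in all 16 alternatives.

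**Figure D5:**
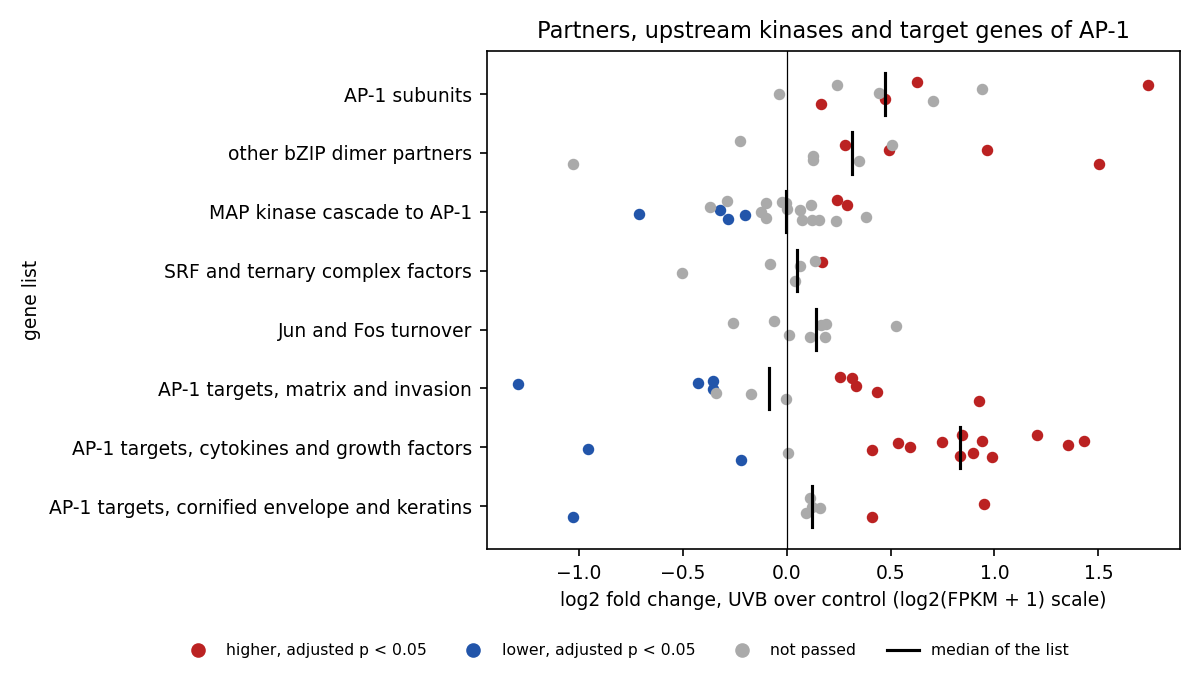
Log2 fold change of UVB over control for the tested genes of each list, red where called higher, blue where called lower, grey where not passed, with the list median as a black bar. The cytokine and growth factor list has the highest median, 0.83, and the MAP kinase list is centred at 0.

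The kinase cascade that phosphorylates AP-1 proteins was described in the same way. Of 21 tested genes, 2 rose, 4 fell and 15 did not pass, with a median of -0.004, beside 17% higher and 11% lower of all tested genes. The counts depended on the settings, with 0 to 3 higher and 1 to 7 lower. MAP2K6, an activator of p38, fell from 1.70 ± 0.0136 to 0.660 ± 0.179 FPKM (limma log2 fold change -0.71, adjusted p = 0.0038) and was called lower in all 16 alternatives. MAP3K4 fell by 0.32 and MAP3K7, which encodes TAK1, by 0.28, and MAP3K1, a kinase upstream of JNK, rose by 0.29. Those 3 calls were lost in 5, 12 and 3 of 16 alternatives. MAPK8, which encodes JNK1, had 5.13 ± 0.539 FPKM in controls against 5.10 ± 0.315 with UVB. MAPK9, which encodes JNK2, was called lower, at 6.75 ± 0.28 and 5.76 ± 0.252 FPKM (limma adjusted p = 0.0466). This call was lost in several alternatives, among them those in which MAP2K6 was the only kinase gene called lower. MAPKAPK3 was called higher, at 14.4 ± 0.661 and 17.2 ± 0.59 FPKM (limma adjusted p = 0.0174). Its call was lost with the replicate block, where no kinase gene was called higher. MAPK8, MAPK9 and MAPKAPK3 were chosen after their values were seen.

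Serum response factor and its partners drive early transcription of FOS. Of 6 such genes tested, 1 rose, beside 17% called higher of all tested genes. This gene was ELK1, with a log2 fold change of 0.17 (limma adjusted p = 0.0447), and its call was lost in 11 of 16 alternatives. Of 8 genes for turnover of Jun and Fos proteins none was called by limma, with 3 higher and 1 lower at an unadjusted p under 0.05, which 24.6% and 15.8% of all tested genes reached in these directions. Of these genes edgeR called 1 lower, and DESeq2 called 1 higher and 1 lower. The highest of these in level were ITCH, a ubiquitin ligase for Jun proteins, at 19.6 ± 0.878 and 29.4 ± 8.41 FPKM (adjusted p = 0.0733), and CUL1, a ubiquitin ligase scaffold, at 22.6 ± 0.313 and 21.6 ± 0.885 FPKM. Leaving out UVB replicate 2, ITCH passed limma (0.31 on the log2 scale, adjusted p = 0.0238).

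Genes known as AP-1 targets in other settings were divided by kind. Of 15 cytokine and growth factor genes, 12 rose and 2 fell, with a median log2 fold change of 0.83 against 0.04 over all tested genes. Calls over all tested genes were 17% higher and 11% lower. Of the 12, IL6 (0.102 FPKM in controls and 0.973 after UVB) and CSF2 (0.384 and 1.10) passed the filter only through their level after UVB, so they could only be tested because they were high there. Among the 13 genes with a control mean of at least 0.5 FPKM, a restriction chosen after seeing the data, 10 rose and 2 fell, with a median of 0.84. The neutrophil chemokine gene CXCL8 rose by 1.43, PTGS2, which encodes cyclooxygenase-2, by 1.36, AREG, a ligand of the EGF receptor, by 1.21 and IL1A, an alarm cytokine, by 0.99. CCL2, a monocyte chemokine, and CCND1, which encodes cyclin D1, fell by 0.95 and 0.22, and only 1 gene of the list was called lower in 6 of 16 alternatives. Of 12 tested matrix and invasion genes 5 rose and 4 fell, with a median of -0.09, beside the same 17% and 11% of all tested genes. PLAUR, the urokinase receptor gene, rose from 2.85 ± 0.332 to 6.29 ± 0.291 FPKM (log2 fold change 0.92), and TIMP1, an inhibitor of matrix proteases, rose by 0.43. TNC, which encodes tenascin C, fell from 2.31 ± 0.142 to 0.352 ± 0.0286 FPKM (-1.29). MMP1, the collagenase gene long used to study AP-1, did not pass, at 1.66 ± 0.294 and 1.37 ± 0.331 FPKM. MMP13 (3.48 to 4.65 FPKM) and MMP12 (0.617 to 1.01 FPKM) were called higher, with limma adjusted p of 0.00595 and 0.0321. MMP14 was called lower (95.4 to 74.5 FPKM, adjusted p = 0.00515). MMP10 did not pass, and MMP3 and MMP9 were under the filter. These MMP genes were named after their values were seen.

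Of 15 cornified envelope and keratin genes 7 were tested, because the other 8 had means under 0.5 FPKM over the 6 libraries. FLG (0.656 FPKM in controls and 0.282 after UVB) and KRT1 (0.68 and 0.14) had control means over 0.5 FPKM. They missed the filter only through their lower level after UVB. IVL, the envelope protein gene with a well known AP-1 site, fell from 17.1 ± 2.65 to 7.82 ± 0.396 FPKM (limma log2 fold change -1.03, adjusted p = 0.00139). The wound keratin genes KRT6A and KRT16 rose by 0.95 and 0.41, and the call of KRT16 was lost in 4 of 16 alternatives. Each of the 3 target lists held genes that rose and genes that fell. Whether AP-1 acts on any of these genes here was not tested.

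The genes whose profile was most like that of JUN over the 6 libraries, among the 12853 whose mean reached 1 FPKM, were PRDM10, CDH24, OAS3, KIAA0355 and CLTB. Their Pearson correlations with JUN on log2(FPKM + 1) were 0.9985 to 0.9991, which describes 2 flat groups at different levels. Of those genes, 16.2% had a correlation of at least 0.9 with JUN. The genes most like FOSL2, the Fos gene with the highest mean, were ZNF280D, RMC1, GPX8, ORAI2 and TRIM56, at 0.9938 to 0.999, and 2.3% of genes reached 0.9. All 5 shared the low value of FOSL2 in control replicate 2, but they were chosen for their likeness to FOSL2 over libraries that include that one. TRIM56 measured 23.1, 8.12 and 21.6 FPKM in controls and 30.5, 33.9 and 31.8 FPKM after UVB, and GPX8 measured 9.22, 4.58 and 9.16 FPKM in controls.

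Markers were used to check the cell type. All 12 keratinocyte markers passed the filter, with summed levels of 1140 to 1320 FPKM in controls and 933 to 1010 FPKM after UVB. Of these, 2 rose and 5 fell, but 3 were called lower without UVB replicate 1 and also without UVB replicate 3, and 1 was called higher without UVB replicate 2 and also without UVB replicate 3. The other 5 did not pass. Over all tested genes the shares called were 17% higher and 11% lower. KRT5 fell from 287 ± 75.2 to 122 ± 36.6 FPKM, SFN and ITGA6 fell by 0.51 and 0.46, and KRT14 was low throughout, at 1.02 ± 0.165 and 1.73 ± 0.149 FPKM, a rise whose call was lost in 4 of 16 alternatives. LAMB3, also called higher, rose from 122 ± 11.7 to 163 ± 3.62 FPKM (limma adjusted p = 0.00822). Melanocyte markers summed to 0.757 to 1.18 FPKM in controls and 0.927 to 1.07 after UVB, with TYR listed at 0. Fibroblast markers summed to 0.789 to 1.06 and 1.79 to 1.97 FPKM, of which COL1A1 gave 0.778 ± 0.137 and 1.75 ± 0.132. Leukocyte markers summed to 14.9 to 15.9 and 21.9 to 30.4 FPKM, and CD3E and LYZ were listed at 0. The rise among these was in CD68, from 5.16 ± 0.843 to 18.2 ± 3.22 FPKM, with 85.8% of its exon bases shared with other genes. Endothelial markers summed to 4.26 to 5.21 and 5.91 to 8.96 FPKM, nearly all of it CDH5, with KDR listed at 0. The part of these markers in the changes of AP-1 genes was not tested.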

How the data were processed

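RNA was sequenced from 6 libraries of HaCat cells, 3 control and 3 UVB, grouped by sample title. The reads were processed with HISAT2 2.0.5, StringTie and DESeq on hg38 (GRCh38), per the submitters' processing notes, which give no role for each. No source used here gives the counting program or its strand setting. The authors deposited FPKM values for 58735 genes and 771683 repeat copies in 1 table. These are scaled to gene length and to the reads assigned to genes and repeats. The same table holds the authors' log2 fold changes, p-values, test score and mean signal (normalised count) from their own comparison, per the file headers. The authors deposited read counts for a sheet of repeat copies, which gave the assigned reads per library. With these totals 100% of non-zero FPKM values gave whole numbers of reads within 0.01. That each unit is a single read is not known.

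Genes averaging 0.5 FPKM or more entered limma 3.58.1 (R 4.3.3, eBayes with a mean trend) as log2(FPKM + 1), and p was adjusted by Benjamini-Hochberg over all genes tested. Fold changes are on this scale, which understates changes of low genes. Alternatives were pseudocounts of 0.1 and 0.01, other filters and scalings, no mean trend, edgeR 4.0.16 and DESeq2 1.42.0 on recovered reads, a block for the replicate number, and each library left out in turn. Gene positions and exons are those of GENCODE release 29, and promoters are from RefSeq.

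The members and gene lists were chosen with earlier results of these data known. Named genes are the 10 members and, per list, the up to 4 called genes with the largest absolute log2 fold change, or the 2 highest in level where none was called. Other genes named were chosen after their values were seen. Some genes that this rule names are not reported here.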

Additional observations from a re-analysis of the deposited data

How the results depend on the processing

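Over 16 alternatives, 3 to 6 members were called higher and none lower. JUN, JUND and FOSL1 were called higher in each, at log2 fold changes of 1.69 to 1.96, 0.42 to 0.51 and 0.55 to 0.66. JUNB was called in 6 of the 16, and FOSL2, ATF3, MAFF and FOSB, not called with all libraries, were called in 3, 2, 1 and 1. FOS changed sign without control replicate 3 (0.000778) and without UVB replicate 2 (0.0986) and was never called, with -0.1168 as its lowest value when a library was left out. Leaving out 1 library each gave 1629 to 2081 genes higher and 1180 to 1319 lower over all genes, against 2530 and 1637, with 3 to 5 members higher. The lowest count of higher genes came without UVB replicate 3 (1629), and fewer samples lower what a fit can call. The lower count of the kinase list went from 4 to 7 with quantile normalization and to 1 without the filter and with control replicate 1, control replicate 2 or UVB replicate 1 left out. The lower count of the cornified list went from 1 to 3 without the filter.

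The titles number the replicates alike in both groups, but the deviations of same-numbered libraries correlated at only 0.048, 0.022 and 0.03, so the libraries were not taken as paired. Each library correlated best with its own number. With the number as a replicate block, 3 members and 1789 genes in all were called higher, and JUNB had an adjusted p of 0.0524.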
